A study of Mus musculus with 8 samples.

Results

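NMuMG cells are a mouse mammary gland epithelial line, and the cells described here carried a stable vector for the major satellite repeat, which is arrayed in tandem in the heterochromatin beside mouse centromeres. Their response to TGFbeta was read from 4 of the study's 8 Affymetrix arrays of total RNA, namely those with the major satellite vector in their labels. Of these 4 arrays, 2 came from untreated cells (0 h) and 2 from cells given TGFbeta for 8 h. The other 4 arrays came from NMuMG cells with a stable control vector, 2 untreated and 2 with TGFbeta for 8 h, and served for comparison. The labels name no untreated array at 8 h in either line. An effect of TGFbeta therefore cannot be told apart from one of 8 h in culture or of handling. Each treated array shared a code in its title with an untreated array of the same line, and these matched arrays are called pair 1 and pair 2. The sources used here do not give the TGFbeta dose, the level of satellite RNA reached, or whether a line was a clone or a pool. The labels do not say whether arrays of a group came from separate cultures. The p-values therefore reflect the array-to-array spread alone, which may be technical, and the small number of arrays limits the precision.

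TGFbeta binds a pair of receptor kinases, which phosphorylate Smad proteins that enter the nucleus and switch target genes on or off. Some of those targets are inhibitors of the same pathway. In mammary epithelial cells TGFbeta is known to slow proliferation and to start the epithelial-mesenchymal transition (EMT), in which cells loosen their junctions, remodel their cytoskeleton and deposit matrix. Major satellite repeats lie beside the centromeres, where heterochromatin protein HP1 and histone methylation keep them compact. The question put to the arrays was which functions rose and which fell within 8 h of TGFbeta in cells made to express this repeat.

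Expression is given as the deposited log2 value of 1 probeset per gene, called its level, and a change as the log2 difference, 8 h minus 0 h, ± standard error (SE) from the paired limma model, with 2 arrays per group. A log2 difference of 1 is a 2-fold change. The median over all probesets was 7.72 to 7.76 on arrays of the first code and 7.88 to 7.92 on those of the second. The treated array of pair 2 stood apart from the other 7 arrays in small nucleolar and Cajal body RNA genes, whose median level over 54 genes was 10.49 there and 9.88 to 10.14 on the others. Each of the 4 major satellite arrays was left out in turn, and the counts of these reduced fits are given beside a list's counts where they differ by more than 1.5 times. The lone array of a group is then assumed to vary like the other groups. Of the 70 lists of genes, 58 had their fewest called members without the untreated array of pair 2, 36 without the treated array of pair 2, 23 without the untreated array of pair 1 and 2 without the treated array of pair 1, with ties counted for each. A dagger (†) after a gene marks a change that passed with all arrays but not in at least 1 of these 4 fits. The lists were chosen with earlier results of these data known, and list counts are descriptions to be read beside the shares of all genes.

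The keratin genes Krt8, Krt18 and Krt19 and the E-cadherin gene Cdh1, all epithelial, had levels of 12.82 to 14.37 on the 2 untreated arrays. Other defining epithelial genes were low. Epcam, Esrp1 and Grhl2 lay between 6.06 and 6.70, below the median level of all genes on those arrays (8.19 and 8.14). Of 12 epithelial markers, 7 lay above that median on both arrays before TGFbeta and 8 after it, and Cldn4 and Krt7† rose while Krt19 and Ocln† fell. Of 8 mammary luminal markers 3 lay above it before and after, all of them keratins named above, and of 8 basal and myoepithelial markers 0 did, although Krt14† rose by 0.61 ± 0.14. Of 10 fibroblast markers, 2 lay above it before and 4 after, and 3 rose, namely Col1a1†, Pdgfra and Pdgfrb†. The median level of the 7 endothelial markers was 6.79 to 7.04 on the untreated arrays and 6.75 to 6.97 on the treated arrays, that of the 7 immune markers 6.53 to 6.68 and 6.48 to 6.69, and that of the 5 adipocyte markers 6.32 to 6.45 and 6.39 to 6.48. None of these 19 passed in limma, and at an unadjusted p under 0.05 there were 2 endothelial, 2 immune and 0 adipocyte markers. In RNA from whole cultures, fewer cells of a type and less RNA per cell cannot be told apart.

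Genes changed in both directions between 0 h and 8 h of TGFbeta. At an adjusted p under 0.05, 3044 of 19937 genes passed (15.3%), of which 1374 rose (6.89%) and 1670 fell (8.38%). The changes were mostly modest. Their median size was 0.53, and 424 genes changed at least 2-fold, 207 upward and 217 downward. At least 4-fold rises numbered 19 and falls 23. The median difference of all genes was 0.03. Among the called genes, 79.7% had both treated arrays on 1 side of both untreated arrays, against 34.0% of all genes. Called genes that fell had a median untreated level of 10.04, against 9.24 for those that rose and 8.18 for all genes. The untreated level is a term of the difference by which genes were called, so these medians are not independent of the call.

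The size of the change differed between the pairs more for falls than for rises. The median fall was -0.47 in pair 1 and -0.63 in pair 2, and 1290 of the 1670 falls were larger in pair 2. The median rise was 0.50 and 0.56, and 819 of the 1374 rises were larger in pair 2. When the replicate number was left out, 218 genes passed (1.09%), 136 higher and 82 lower, and all 218 were among the 3044. Leaving out the treated array of pair 2 left 737 rises and 692 falls, leaving out the untreated array of pair 1 left 773 and 917, and leaving out the untreated array of pair 2 left 596 and 632. Without the treated array of pair 1 the counts were 1358 and 1662. In the same direction, 1021 genes passed in each of these 4 reduced fits, 503 higher and 518 lower.

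Prg4, which encodes the joint lubricant lubricin, had the largest rise. Its level was 7.27 and 6.56 on the untreated arrays of pair 1 and pair 2 and 11.74 and 11.62 on the treated arrays, a difference of 4.76 ± 0.25 or 27.1-fold (adjusted p = 1.25e-05). Ctsw encodes cathepsin W, a cysteine protease known from cytotoxic lymphocytes. It went from 7.74 and 7.62 to 11.21 and 11.59, a difference of 3.72 ± 0.20 or 13.2-fold. Has2, a synthase of the matrix polysaccharide hyaluronan, went from 6.55 and 6.03 to 9.34 and 9.83, a difference of 3.29 ± 0.20. In each of these 3 genes both treated arrays lay more than 2 log2 units above both untreated arrays. Adgra1, an adhesion G protein-coupled receptor gene, went from 8.37 and 8.48 to 11.33 and 11.60. Mab21l4 was already well expressed, at 10.54 and 10.22, and reached 13.26 and 13.00 with the smallest error among the 15 rises and 15 falls of largest size (2.76 ± 0.08). The folate enzyme gene Aldh1l1 moved in parallel in the pairs, from 6.999 to 9.71 and from 6.71 to 9.42.

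The other 9 of the 15 largest rises came from several functions. Thbs1, encoding the matrix glycoprotein thrombospondin 1, went from 10.71 and 10.08 to 12.84 and 13.07. Lect2, a secreted protein known as a leukocyte chemoattractant, rose by 2.51 ± 0.14, and Lmcd1, a LIM domain protein, by 2.46 ± 0.21. Sdc3, a cell-surface heparan sulfate proteoglycan, rose by 2.40 ± 0.10, and Gadd45a, a growth arrest and DNA damage gene, by 2.26 ± 0.12. Cldn4, a tight junction claudin, went from 7.66 and 7.91 to 10.09 and 9.98. Sh3bp2, a signalling adaptor, rose by 2.19 ± 0.11, and Pfkfb4, a regulator of glycolysis, by 2.18 ± 0.12. Ctla2a, an inhibitor of cysteine proteases, rose by 2.32 ± 0.12, and since it has close relatives its probeset may not read it alone. Of these 15 rises, 14 also passed without the replicate number, the exception being Lmcd1.

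Detoxification enzymes and chemokines were among the largest falls. Akr1c19, an aldo-keto reductase, went from 10.81 and 12.24 to 7.68 and 8.73, a difference of -3.32 ± 0.13 (adjusted p = 6.17e-06). Its untreated arrays differed by more than a log2 unit, and so did its treated arrays, in the same order. Cxcl5, a neutrophil-attracting chemokine, went from 11.62 and 11.65 to 8.14 and 8.70. Ccl20, which attracts cells through the receptor Ccr6, went from 11.76 and 9.998 to 8.09 and 7.75, so that the fall was larger in pair 1. Sptssb, a subunit of the enzyme that starts sphingolipid synthesis, fell from 8.78 and 10.66 to 6.51 and 7.35. Stc1, the secreted glycoprotein stanniocalcin 1, fell from 9.66 and 10.45 to 7.62 and 7.42. Il33, a nuclear alarmin cytokine, fell by 2.25 ± 0.13, with levels about a log2 unit apart between the pairs both before and after TGFbeta.

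Of the 15 largest falls, 7 were in enzyme families of drug and steroid metabolism. They were Akr1c19, the cytochromes P450 Cyp2s1 (-2.63 ± 0.22), Cyp3a13 (-2.20 ± 0.30) and Cyp2c65 (-2.16 ± 0.30), the glucuronosyltransferases Ugt2b34 (-2.62 ± 0.17), Ugt2b36† (-2.53 ± 0.47) and Ugt2b35 (-2.46 ± 0.27). The remaining 3 were Aspa (-2.16 ± 0.21), which cleaves N-acetylaspartate, and the membrane peptidases Cpm (-2.38 ± 0.38) and Mep1a (-2.30 ± 0.29). Ugt2b, Cyp2c and Akr1c genes are close copies, so which member moved is uncertain. Of the 15 falls, 5 passed without the replicate number, namely Cxcl5, Cyp2s1, Ugt2b34, Stc1 and Mep1a. Across all 30 genes of largest change the treated arrays did not overlap the untreated arrays. The 30 were picked by the size of this change, and 79.7% of all called genes did not overlap either.

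**Figure D1:**
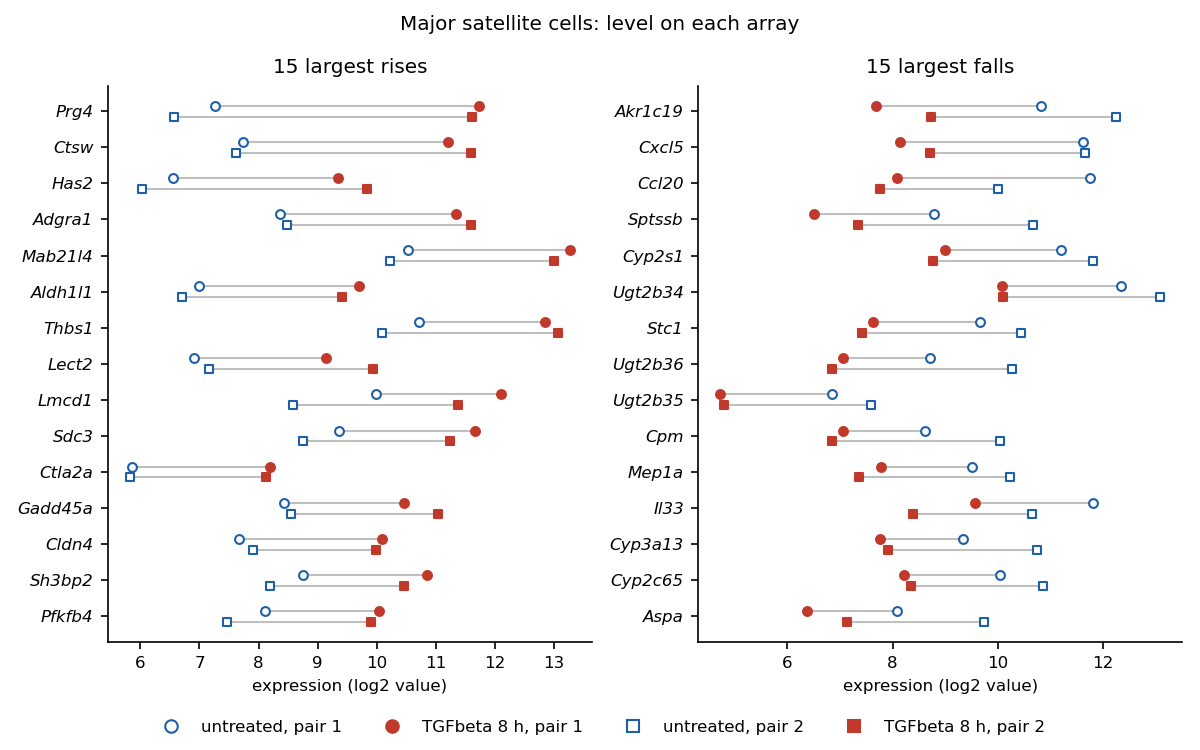
Level (log2 value) of 15 genes that rose most and 15 that fell most on each of the 4 major satellite arrays. Open symbols are untreated, filled symbols are 8 h of TGFbeta, circles are pair 1, squares are pair 2, and a grey line joins the arrays of a pair. Prg4 went from 7.27 and 6.56 to 11.74 and 11.62. In all 30 genes, picked by the size of this change, the filled symbols lie on 1 side of the open ones.

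Promoter sequence was read for the genes of largest change because TGFbeta targets are known to be bound by Smad proteins at short CAGA boxes, often together with the AP-1 factor. RefSeq windows of build GRCm38.p6, running from 250 bases before to 50 bases after an annotated start, were matched for 15562 of the 19937 genes (19115 windows) and for 24 of these 30 genes. The AP-1 letters TGAGTCA were searched on both strands. They were in 4.61% of all windows, in 11.4% of the 201 windows of genes that rose at least 2-fold and in 7.73% of the 220 windows of genes that fell at least 2-fold. The CAGA box letters CAGACA, also on both strands, were in 18.2%, 30.3% and 16.4%. The palindrome GTCTAGAC was in 0.246% of all windows and in none of these 201 and 220. Shares are descriptions of these letters in these windows, and a gene can have several windows. The Cldn4 window (chr5:134946885-134947184, minus strand), with its 2 AP-1 matches in capitals, and the Sh3bp2 window (chr5:34549326-34549625, plus strand), with its 2 CAGA box matches in capitals, show how such matches lie in genes that rose more than 4-fold.
Cldn4: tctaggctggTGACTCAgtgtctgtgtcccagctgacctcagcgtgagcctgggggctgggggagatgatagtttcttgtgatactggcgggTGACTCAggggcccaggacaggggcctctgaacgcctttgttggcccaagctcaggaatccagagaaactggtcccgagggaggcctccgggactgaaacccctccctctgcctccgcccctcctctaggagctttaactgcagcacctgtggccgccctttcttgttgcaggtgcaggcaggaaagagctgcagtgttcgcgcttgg
Sh3bp2: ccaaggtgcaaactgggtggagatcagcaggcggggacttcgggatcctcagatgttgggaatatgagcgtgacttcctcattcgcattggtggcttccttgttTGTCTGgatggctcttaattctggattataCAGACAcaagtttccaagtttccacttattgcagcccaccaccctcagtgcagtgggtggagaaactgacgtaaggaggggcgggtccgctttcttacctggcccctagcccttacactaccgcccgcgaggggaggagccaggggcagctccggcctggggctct

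Among the pathway's own genes, the inhibitors held the most rises. Of 14 feedback inhibitors, 8 rose and 0 fell, with a median difference of 0.53. Ldlrad4, which keeps Smad2 and Smad3 from the receptor, went from 8.67 and 8.97 to 10.54 and 11.07. Spsb1, an adaptor that directs ubiquitin to the type II receptor, went from 8.53 and 8.29 to 10.48 and 10.24. Smad7, which blocks the type I receptor, went from 9.47 and 9.35 to 10.55 and 10.63, a difference of 1.18 ± 0.11 (adjusted p = 0.000165). The transcriptional repressors Skil (1.25 ± 0.09) and Ski (0.91 ± 0.11) and the membrane protein Pmepa1 (0.89 ± 0.10) rose too, as did Smurf1† (0.57 ± 0.13), a ubiquitin ligase, and Tgif1† (0.50 ± 0.08), a Smad corepressor. Both treated arrays were above both untreated arrays for each of these 8 genes. They were called on the same arrays, and the groups did not overlap in 79.7% of all called genes. Of the 8, 4 passed without the replicate number (Ldlrad4, Spsb1, Smad7 and Ski), and 6 to 7 members of the list passed in the 4 reduced fits, 7 of them without the treated array of pair 2.

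Ligands and receptors changed less. Of 12 ligand and latency genes, 4 rose and 1 fell. Inhba, which encodes the activin A subunit, went from 10.47 and 10.41 to 11.56 and 12.24, a difference of 1.46 ± 0.16. Ltbp1, which stores latent TGFbeta in the matrix, rose by 0.89 ± 0.09, and Tgfb3† (0.87 ± 0.20) and Ltbp3† (0.46 ± 0.10) rose, whereas Inhbb†, the other activin subunit gene, fell by 0.42 ± 0.11. Of 14 receptors and Smads, 3 rose and 1 fell. The type I receptor genes Acvr1 (1.15 ± 0.11) and Tgfbr1 (0.88 ± 0.10) and the coreceptor gene Eng† (0.44 ± 0.09) rose, and Acvr2a† fell by 0.42 ± 0.11. Inhba and Ltbp1 also passed without the replicate number and no receptor or Smad gene did. In the 4 reduced fits 2 to 3 ligand genes and 2 to 3 receptor genes rose, and 0 to 1 of each fell.

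Genes of the bone morphogenetic protein (BMP) branch that passed mostly fell. Of 27 BMP ligands, receptors, Smads and Id genes, 4 fell and 1 rose, a share of 18.5% against 15.3% of all genes. The Id genes encode inhibitors of helix-loop-helix transcription factors and are classic BMP targets. Id2 fell from 13.69 and 13.68 to 12.02 and 11.74, which left it among the better expressed genes. Id3 fell by 1.15 ± 0.12 and Id1 by 0.63 ± 0.10. Bmp4, a ligand, fell from 10.85 and 10.90 to 9.37 and 9.75. Bmpr2, the BMP type II receptor gene, rose by 0.65 ± 0.10. Each of the 4 reduced fits gave the same counts of 4 falls and 1 rise. Id2 and Bmp4 passed without the replicate number.

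Among 17 EMT transcription factors 8 rose and 1 fell, with a median of 0.32. Snai1, which encodes the repressor Snail, went from 8.89 and 8.72 to 10.92 and 9.92, so its rise was 2.03 in pair 1 and 1.20 in pair 2. Runx1 rose by 1.12 ± 0.11, Zeb1 by 0.77 ± 0.10, Sox9† by 0.77 ± 0.19, Zeb2† by 0.65 ± 0.11, Sox4† by 0.48, Snai2† by 0.36 and Ets1† by 0.32. Twist2 fell from 10.76 and 10.44 to 9.64 and 9.58. Runx1 and Twist2 passed without the replicate number. In the reduced fits 3 to 5 rose and 1 fell, and without the treated array of pair 2 it was 4 and 1. Of 18 epithelial transcription and splicing regulators, Ehf† (-0.66 ± 0.14) and Tfap2a† (-0.50 ± 0.14) fell and none rose, a share of 11.1% against 15.3% of all genes. These 2 falls were in none of the 3 reduced fits that kept the treated array of pair 1. Classic outcome genes of EMT were mixed. Fn1, the fibronectin gene, rose by 0.73 ± 0.10 from 12.49 and 12.32, whereas Cdh1 differed by -0.16 ± 0.09 (adjusted p = 0.295) and Vim, the vimentin gene, by 0.04 ± 0.08 (adjusted p = 0.784). Vim was already at 14.16 and 14.11 in untreated cells, near the top of the scale.

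Of 15 AP-1 and ATF factors, which include immediate-early genes, 8 rose and 2 fell (median 0.33). Jun went from 9.81 and 9.01 to 10.87 and 10.49, and Junb from 9.78 and 9.17 to 10.60 and 10.59. Fosl2† rose by 0.90 ± 0.15, Maff† by 0.66 ± 0.13, Fos† by 0.58 ± 0.11 and Atf3† by 0.57 ± 0.12. Maf† (-0.57 ± 0.11) and Fosl1† (-0.43 ± 0.09) fell. None passed without the replicate number, and the reduced fits gave 2 to 7 rises and 0 to 1 falls, the 2 without the treated array of pair 2. The zinc finger factors split, with 5 of 21 Egr and Kruppel-like genes higher and 5 lower. Klf10, known as TGFbeta-inducible early gene, rose by 0.99 ± 0.11, and Egr2, which acts in nerve and immune cells, by 0.77 ± 0.10. The epithelial factor Klf5 fell from 12.18 and 12.04 to 11.25 and 11.09, Klf3 by 1.02 ± 0.11 and Egr1 by 0.68 ± 0.08. Of 96 Sox, Hox and Fox genes, 7 rose and 4 fell. Foxf2, a mesenchymal factor, rose by 1.14 ± 0.09, Foxq1 by 1.13 ± 0.09 and the neural factor Sox11 by 0.58 ± 0.09, while Foxa2, a factor of gut and lung epithelium, fell from 10.40 and 10.03 to 8.96 and 8.66. Klf5, Foxa2 and Foxf2 passed without the replicate number, and the reduced fits gave 2 to 4 rises and 3 falls of Egr and Kruppel-like genes and 3 to 6 rises and 1 to 4 falls of Sox, Hox and Fox genes.

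Nuclear receptor and clock genes that passed were lower more often than higher, though in small numbers. Of 38 nuclear receptors, 5 fell and 2 rose, a share of 18.4% against 15.3% of all genes. The mineralocorticoid receptor gene Nr3c2 fell by 1.12 ± 0.15, the thyroid hormone receptor genes Thrb by 0.79 ± 0.11 and Thra† by 0.49 ± 0.10, and the glucocorticoid receptor gene Nr3c1† by 0.45 ± 0.08. The vitamin D receptor gene Vdr rose from 9.50 and 9.71 to 10.68 and 10.39. Of 16 clock and PAR-bZIP genes, 5 fell (Dbp†, Per2, Cry2†, Ciart† and Per1†, by 0.33 to 0.96) and 1 rose. The riser was Bhlhe40, a repressor of clock genes, which went from 10.38 and 10.04 to 12.14 and 11.98. The nuclear receptor falls numbered 2 to 9 and the clock gene falls 1 to 5 in the reduced fits, and 1 to 2 nuclear receptors rose. Both fall counts were lowest without the untreated array of pair 2, at 2 and 1. Bhlhe40 passed without the replicate number, and the falls did not.

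**Figure D2:**
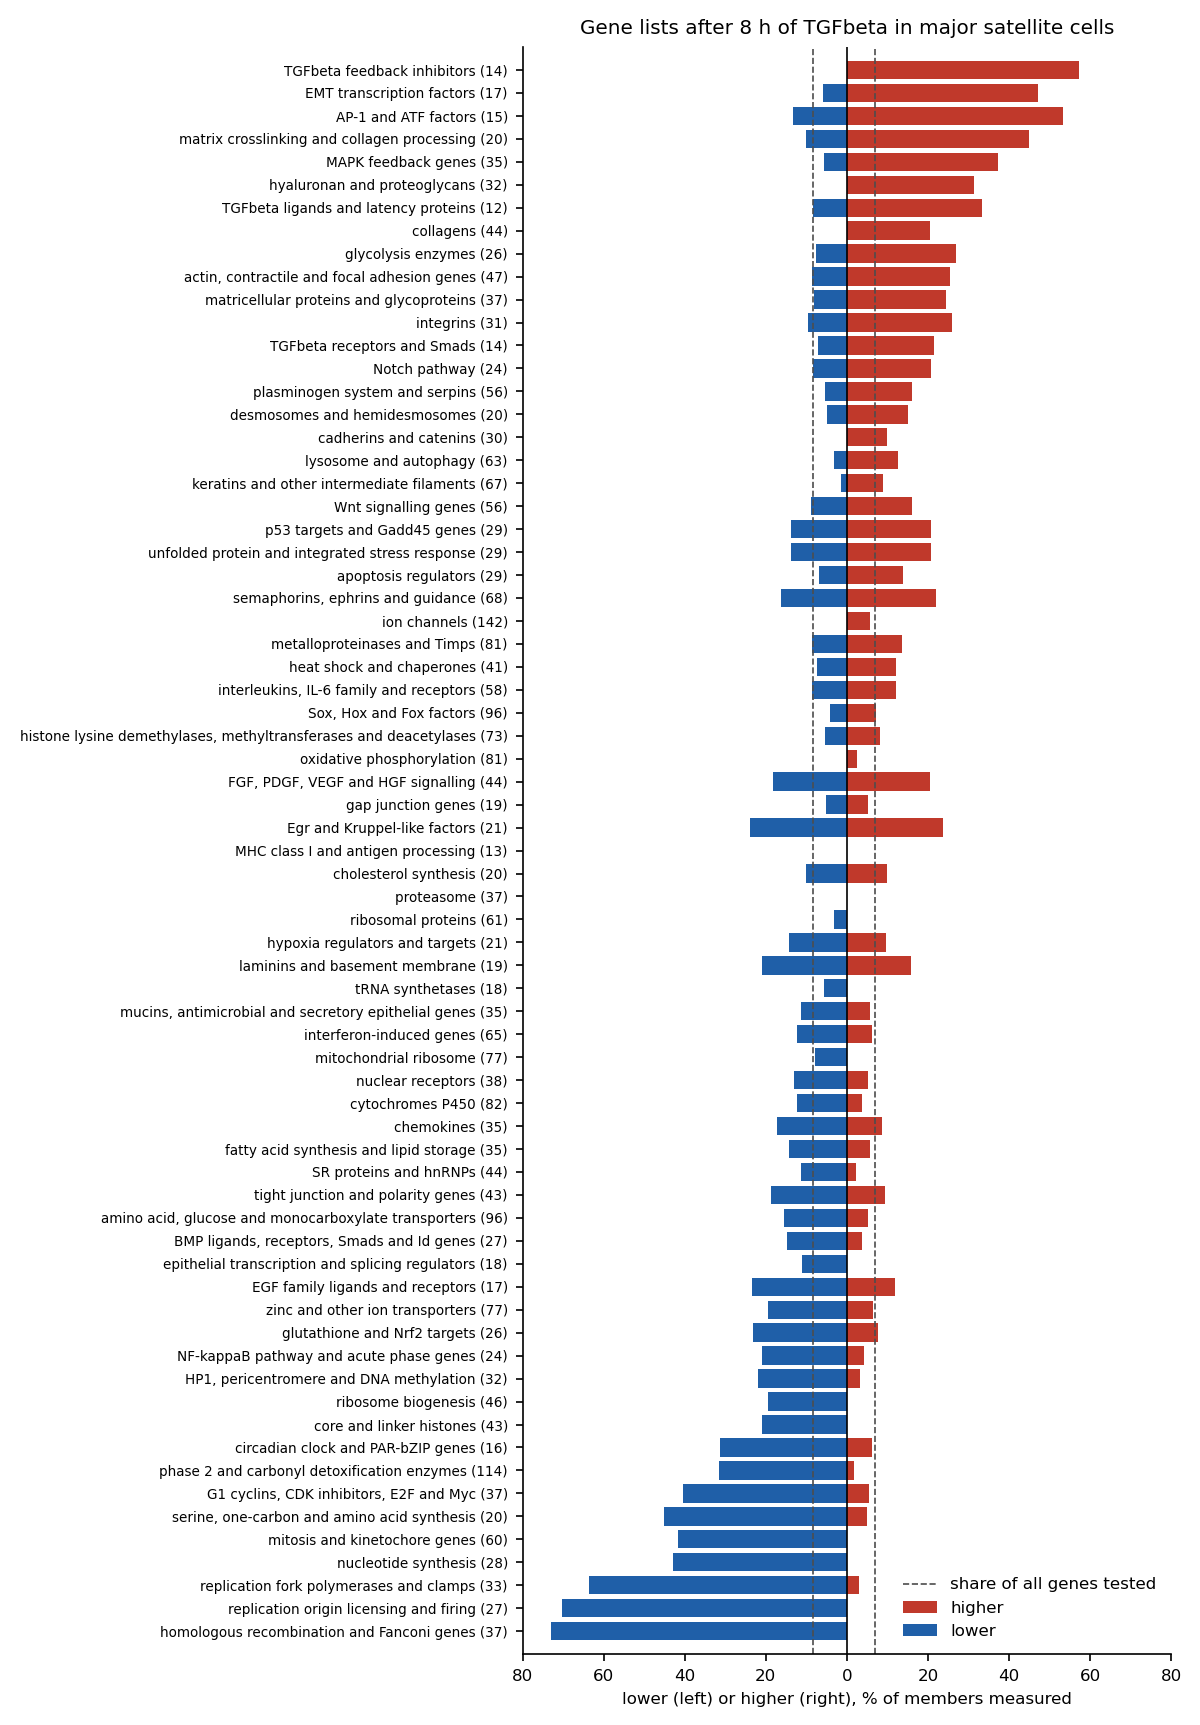
Share of measured members of each gene list shown that passed the test in major satellite cells (%), lower to the left in blue and higher to the right in red, with the number measured in brackets. Dashed lines mark the shares of all genes tested, 6.89% higher and 8.38% lower. Feedback inhibitors (8 of 14 higher) stand at the top and homologous recombination and Fanconi genes (27 of 37 lower) at the bottom.

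Matrix genes rose across several classes. Hyaluronan and proteoglycan genes had 10 of 32 higher and 0 lower (median 0.13), with Has2 and Sdc3 followed by the glypican gene Gpc1, which went from 10.36 and 9.34 to 11.25 and 10.71. Has3† (0.76 ± 0.13), another hyaluronan synthase gene, and Hyal2 (0.52 ± 0.08), a hyaluronidase gene, rose as well. Enzymes that fold and crosslink collagen had 9 of 20 higher and 2 lower (median 0.25). Pcolce2, which aids cleavage of procollagen, went from 10.92 and 9.67 to 12.07 and 11.81. The lysyl hydroxylase gene Plod2 (1.12 ± 0.11), the prolyl hydroxylase gene P4ha3 (0.97 ± 0.14), the procollagen protease gene Bmp1 (0.95 ± 0.11) and the lysyl oxidase gene Lox (0.75 ± 0.12) rose. The exceptions were P3h2 (-0.97 ± 0.13), a prolyl hydroxylase gene, and Pcolce (-0.74), a relative of Pcolce2. Of 44 collagens, 9 rose and 0 fell, all by less than 2-fold, among them Col18a1 (0.74 ± 0.10), Col6a3 (0.65 ± 0.09), Col12a1 (0.61 ± 0.09), Col7a1 (0.61 ± 0.10) and Col1a1† (0.55 ± 0.10). Without the replicate number Has2 and Sdc3 passed and no collagen or crosslinking gene did. In the reduced fits 4 to 7 proteoglycan, 5 to 9 crosslinking and 4 to 8 collagen genes rose, and 0 to 2 proteoglycan genes fell.

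Matricellular proteins, which signal to cells from the matrix, had 9 of 37 higher and 3 lower. Beside Prg4 and Thbs1 these were Ccn4 (1.54 ± 0.16), Tnc (1.36 ± 0.14), Ccn2 (1.05 ± 0.13), Ccn1† (1.01 ± 0.29) and Fbln2 (0.91 ± 0.14). The rise of Ccn1† differed between the pairs, from 12.40 to 12.88 in pair 1 and from 10.80 to 12.34 in pair 2. The fallers were Tnxb (-0.77 ± 0.12), Thbs3 (-0.63) and Efemp1† (-0.59). Basement membrane genes went both ways, with 3 of 19 higher and 4 lower. The laminin beta chain genes Lamb3 (1.23 ± 0.11) and Lamb1 (0.92 ± 0.10) rose, while the beta chain gene Lamb2† (-0.68 ± 0.12) and the linker gene Nid2 (-0.74 ± 0.10) fell. Without the replicate number 4 matricellular genes and none of the basement membrane genes passed, and 7 to 9 matricellular genes rose in the reduced fits. Basement membrane genes had 2 to 3 rises and 1 to 5 falls there.

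Proteases and their inhibitors went both ways. Of 81 metalloproteinases and Timps, 11 rose and 7 fell. Timp3, a matrix-bound inhibitor, went from 9.16 and 9.66 to 10.68 and 11.42, and Timp1† rose by 0.87 ± 0.18. The membrane proteases Adam8 (1.46 ± 0.23), Adam12 (0.97 ± 0.10) and Mmp14 (0.62 ± 0.09) and the secreted Adamts6 (1.43 ± 0.15) and Adamts7 (0.87 ± 0.10) rose. Mmp13, a collagenase, fell from 12.12 and 10.13 to 10.65 and 8.86, so that its untreated level in pair 2 lay below its treated level in pair 1. Of 56 plasminogen system and serpin genes, 9 rose and 3 fell, led by Serpinb1a (1.47 ± 0.19) and Serpinb5 (1.18 ± 0.16), also called maspin. Serpin genes of the b9 and a1 families are near-identical copies, and their probesets may not tell members apart. Without the replicate number Mep1a and Serpinb1a were the members of these lists that passed, and the reduced fits gave 6 to 9 rises and 2 to 5 falls of metalloproteinases and Timps and 4 to 8 rises and 0 to 3 falls of plasminogen system and serpin genes.

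Integrins, the receptors for matrix, had 8 of 31 higher and 3 lower. Itga5, the alpha subunit of the fibronectin receptor, went from 9.89 and 9.45 to 11.97 and 11.68, a difference of 2.16 ± 0.09 (adjusted p = 6.17e-06). The beta subunit genes Itgb3 (0.99 ± 0.10), Itgb5 (0.94 ± 0.08) and Itgb6† (1.01 ± 0.22) and the collagen receptor gene Itga2† (0.92 ± 0.15) rose. Itgb7, which pairs with alpha subunits of leukocytes, fell by 0.81 ± 0.12, and Itga3, a laminin receptor subunit, by 0.53. Itga5 passed without the replicate number, and 4 to 8 integrin genes rose in the reduced fits, 4 without the treated array of pair 2.

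Cell-cell junction genes did not fall as a group by 8 h. Of 30 cadherins and catenins, 3 rose and 0 fell, a share of 10% against 15.3% of all genes. The rises were Cdh6 (0.70 ± 0.09), a cadherin of kidney and neural tissue, Jup† (0.49 ± 0.10), which encodes plakoglobin, and Ctnnd1† (0.41 ± 0.08). Tight junction and polarity genes had 4 of 43 higher and 8 lower, with a median of -0.01. This was a share of 27.9% against 15.3% of all genes, of which 6.89% were higher and 8.38% lower. Cldn4 was the largest change and Jam2† rose by 1.38 ± 0.25. The polarity genes Llgl2† (-0.70 ± 0.12) and Pard6b (-0.68 ± 0.11) and the occludin gene Ocln† (-0.47 ± 0.14) fell, whereas the related gene Llgl1 rose by 0.52 ± 0.08. Desmosome and hemidesmosome genes held a large change each way. Ppl, the periplakin gene, fell from 11.41 and 11.32 to 9.93 and 9.74, and Pkp1, the plakophilin gene, rose from 8.43 and 7.70 to 9.85 and 9.12. Of 67 keratin and intermediate filament genes, 6 rose and 1 fell, a share of 10.4% against 15.3% of all genes. Krt20 (1.23 ± 0.08), a keratin of gut and urinary epithelium, and Krt16 (1.08 ± 0.15), of stressed skin, rose, and Krt19 fell by 0.72 ± 0.09 from 13.76 and 13.59. Cldn4, Ppl and Krt20 passed without the replicate number. In the reduced fits 1 to 3 cadherins and catenins rose and 0 to 1 fell, 2 to 3 tight junction and polarity genes rose and 1 to 5 fell, and 2 to 7 keratin and intermediate filament genes rose and 1 to 2 fell. The 2 keratin list rises came with either array of pair 2 left out, and quantile normalization gave 4 rises and 2 falls.

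Actin and focal adhesion genes had 12 of 47 higher and 4 lower (median 0.13). Pdlim7 (1.15 ± 0.10), Zyx (0.96 ± 0.13), the unconventional myosin gene Myo10 (0.82 ± 0.09), the actin-sensing coactivator gene Mrtfa (0.69 ± 0.09) and the actin crosslinker gene Palld (0.67 ± 0.09) rose. Fhl1, a LIM protein of muscle, fell from 10.70 and 10.32 to 9.41 and 8.25, and the myosin light chain kinase gene Mylk fell from 9.86 and 10.05 to 8.92 and 9.12. Lima1, an actin bundler also called Eplin, fell by 0.89 ± 0.09. Lima1 also passed without the replicate number. The actin list had 6 rises and 3 falls with either array of pair 2 left out.

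Receptors of the same growth factor family moved in opposite directions. Fgfr2, a receptor of epithelial cells, fell from 10.32 and 10.83 to 8.75 and 8.52, a difference of -1.94 ± 0.18 (adjusted p = 0.000174). Fgfr1, the form typical of mesenchyme, rose from 8.30 and 8.04 to 9.43 and 8.62, and Fgfr3† fell by 0.73 ± 0.20. The groups did not overlap for Fgfr1 or Fgfr2, as for 79.7% of all called genes. The ligand gene Fgf1 fell by 1.30 ± 0.18, while the platelet-derived growth factor genes Pdgfa (1.64 ± 0.16) and Pdgfb (1.37 ± 0.12) and the lymphatic growth factor gene Vegfc (1.33 ± 0.09) rose. Of the 44 genes of these families 9 rose and 8 fell. The hepatocyte growth factor receptor gene Met† fell by 0.70 ± 0.12, and Mst1r, the gene of the related receptor Ron, rose by 0.79 ± 0.09. In the EGF family, with 2 of 17 higher and 4 lower (median -0.20), Nrg1 fell from 11.96 and 12.09 to 10.54 and 10.25, with its receptor gene Erbb3† (-0.95 ± 0.18) and the ligand genes Btc (-0.65 ± 0.09) and Tgfa† (-0.48 ± 0.10). Egfr† rose by 0.62 ± 0.10. Fgfr2, Vegfc and Nrg1 passed without the replicate number. The FGF, PDGF, VEGF and HGF list had 8 to 9 rises and 4 to 9 falls in the reduced fits, and the EGF family 0 to 1 rises and 2 to 3 falls.

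Feedback genes of MAP kinase signalling, mostly dual-specificity phosphatases, had 13 of 35 higher and 2 lower, although the median was 0.10. The 2 that fell were Dusp6 and Spry1. Dusp6 went from 12.08 and 11.59 to 11.03 and 10.30 and Spry1 from 9.73 and 9.63 to 8.81 and 8.27. Spred2 (1.02 ± 0.11), Dusp28 (0.89 ± 0.09), Dusp13 (0.85 ± 0.08), Dusp5† (0.82 ± 0.20) and Dusp7 (0.73 ± 0.08) rose. Spred2 and Dusp13 passed without the replicate number, and 6 to 10 members rose and 2 fell in the reduced fits.

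Guidance molecules held large changes in both directions, with 15 of 68 higher and 11 lower. Plxna4, a semaphorin receptor gene, went from 8.59 and 8.38 to 10.60 and 10.51. The secreted semaphorin genes Sema3c (11.40 and 11.48 to 9.63 and 9.52) and Sema3e (10.24 and 10.56 to 8.70 and 9.28) fell. The coreceptor genes moved oppositely, Nrp2 from 10.54 and 10.17 to 11.49 and 11.52 and Nrp1 from 11.38 and 11.62 to 10.39 and 10.57. Among ephrins, Efnb1 (1.05 ± 0.09) and Efna3 (0.89 ± 0.09) rose and Efna5 (-0.95 ± 0.13) fell, and the receptor gene Epha7 fell by 1.27 ± 0.15. Sema4f rose by 0.95 ± 0.11 and Sema4a fell by 1.01 ± 0.12. Plxna4, Sema3c and Nrp2 passed without the replicate number, and the reduced fits gave 10 to 13 rises and 7 to 9 falls.

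Notch and Wnt genes changed in ligands and receptors. Jag1, a Notch ligand gene, went from 11.66 and 11.19 to 13.04 and 12.88, and Dll1, another, from 8.17 and 8.04 to 9.45 and 9.18. The receptor genes diverged, with Notch1 falling from 10.95 and 11.18 to 9.82 and 9.80 and Notch2 rising by 0.69 ± 0.11. The target gene Hey1† fell by 0.55 ± 0.11. In all, 5 of 24 Notch genes rose and 2 fell. Of 56 Wnt genes, 9 rose and 5 fell. The R-spondin receptor genes diverged too, Lgr6 going from 8.25 and 7.74 to 10.05 and 9.43 and Lgr4 from 11.16 and 11.89 to 10.45 and 10.73. Fzd2 (1.07 ± 0.12), Wnt7b (1.04 ± 0.11), Ror1 (0.97 ± 0.11) and Wnt1 (0.93 ± 0.09) rose. Jag1, Dll1 and Notch1 passed without the replicate number and no Wnt gene did, while 6 to 9 Wnt genes rose and 3 to 6 fell in the reduced fits, and 4 to 5 Notch genes rose and 1 to 2 fell.

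**Figure D3:**
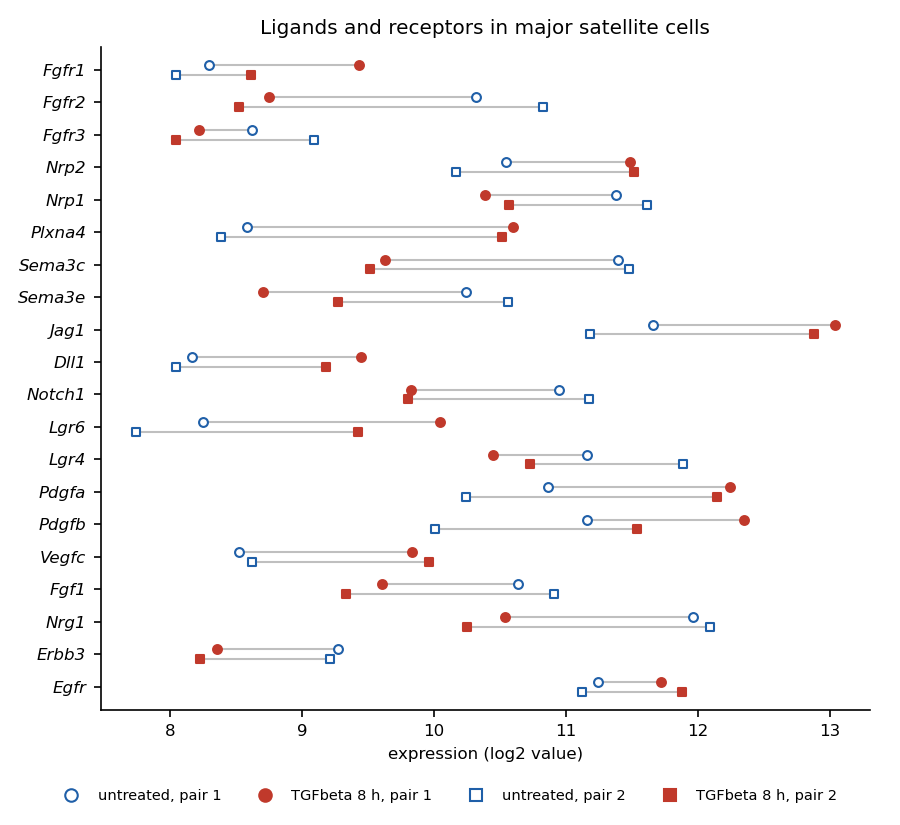
Level (log2 value) of 20 growth factor, guidance, Notch and Wnt ligands and receptors on the 4 major satellite arrays. Open symbols are untreated, filled symbols 8 h of TGFbeta, circles pair 1, squares pair 2, and lines join pairs. Fgfr2, Nrp1, Notch1 and Lgr4 fall where Fgfr1, Nrp2, Jag1 and Lgr6 rise, and Fgfr2 goes from 10.32 and 10.83 to 8.75 and 8.52.

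Chemokine and acute phase genes that passed were lower more often than higher, and the IL-6 family cytokine genes Il11 and Lif rose. Of 35 chemokines, 6 fell and 3 rose. After Cxcl5 and Ccl20, the falls were Cxcl1 (-1.04 ± 0.14), Cx3cl1 (-1.004 ± 0.10), Ppbp (-0.86 ± 0.15) and Ccl9 (-0.82 ± 0.12). Ccl7† rose from 11.19 and 9.96 to 11.81 and 12.07, mostly in pair 2, and Cxcl12 rose by 0.89 ± 0.09 and Cxcl16† by 0.69 ± 0.16. Of 58 interleukin and receptor genes 7 rose and 5 fell, Il11 from 7.29 and 6.997 to 8.81 and 8.82, with Cish (1.34 ± 0.08), Il34 (1.14 ± 0.12) and Lif (0.72 ± 0.10) higher. Socs3 fell by 0.69 ± 0.09, and its other probeset changed by -0.25. Of 24 NF-kappaB and acute phase genes, 5 fell (Saa3†, Vcam1, Cfb†, Icam1† and Nfkbiz†, by 0.37 to 0.81) and Nfkb2† rose. Cxcl5, Cx3cl1 and Il11 passed without the replicate number. The chemokine falls numbered 6 to 8 in the reduced fits and the rises 1 to 5, with 1 rise with either array of pair 2 left out. NF-kappaB and acute phase genes had 1 to 2 falls and 0 to 1 rises, and interleukin and receptor genes 4 to 6 rises and 2 to 5 falls.

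Interferon-induced genes moved in both directions. Of 65, 8 fell and 4 rose, a share of 18.5% against 15.3% of all genes, with a median of 0.04. Mx1† went from 7.33 and 8.42 to 6.65 and 6.28, Ifit3 from 7.48 and 7.44 to 6.41 and 6.37 and Ifit2† from 8.17 and 8.63 to 7.43 and 7.27. Tlr3†, the sensor of double-stranded RNA, fell by 0.82 ± 0.13, and Trim25 by 0.63 ± 0.10. Oasl2 rose from 7.70 and 7.68 to 9.28 and 8.998. Of 13 MHC class I and antigen processing genes none passed in limma (3 at an unadjusted p under 0.05), with differences from -0.24 to 0.66. Leaving out the treated array of pair 2 gave 3 interferon-induced rises and 3 falls, the range over the reduced fits was 2 to 3 rises and 2 to 8 falls, and Oasl2 passed without the replicate number.

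Detoxification enzymes held the most falls of the 70 lists by number, though not by share of members, in a long list. Of 114 phase 2 and carbonyl-metabolising genes, 36 fell and 2 rose, a share of 33.3% against 15.3% of all genes. The share was 73.0% for homologous recombination and Fanconi genes. These enzymes conjugate or oxidise foreign compounds, steroids and aldehydes, and many are known to be controlled by the factor Nrf2. The antioxidant response core, TGACNNNGC on either strand, was in 8.11% of the 185 promoter windows of these and the cytochrome P450 genes and in 13.2% of all windows. Sult1c2, a sulfotransferase, went from 11.62 and 11.89 to 10.01 and 9.79 and Adh7, an alcohol dehydrogenase of epithelia, from 11.08 and 11.45 to 9.38 and 9.51. Akr1c14 fell by 2.11 ± 0.23, and the aldehyde dehydrogenase gene Aldh3a1, the carboxylesterase gene Ces2g and the glutathione transferase gene Gstm1 by 0.98 ± 0.11, 0.997 ± 0.15 and 0.88 ± 0.13. By family, chosen after values were seen, 8 of 21 aldehyde dehydrogenases fell and 1 rose, 6 of 19 glutathione transferases fell and 1 rose, and 3 of 16 sulfotransferases, 4 of 13 Akr1 genes and 3 of 7 Ugt2b genes fell. The rises were Aldh1l1 and Gsto2 (0.70 ± 0.11). The list's median was -0.10, and 76 members did not pass. Of 82 cytochromes P450, 10 fell and 3 rose, a share of 15.9% against 15.3% of all genes, and 5 of the 13 Cyp2c genes fell. The largest P450 rise was Cyp21a1, the steroid 21-hydroxylase gene, from 8.85 and 7.52 to 10.46 and 9.36. Gstm genes are close copies too. Without the replicate number 5 phase 2 falls and 1 P450 fall remained, and without the treated array of pair 2 these were 18 and 5. Over the reduced fits 15 to 31 phase 2 genes and 5 to 10 P450 genes fell and 1 to 2 P450 genes rose, the 15 without the untreated array of pair 2.

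Of 26 glutathione and Nrf2 target genes, 6 fell and 2 rose. Gclc, the rate-limiting enzyme of glutathione synthesis, fell from 13.13 and 13.60 to 11.96 and 12.05. Osgin1 (-1.25 ± 0.15), the cystine transporter gene Slc7a11† (-1.01 ± 0.17) and the exporter gene Abcc2† (-1.12 ± 0.26) fell, as did Nfe2l2† itself (-0.63 ± 0.11), which encodes Nrf2. Gpx3, a secreted peroxidase, rose by 1.07 ± 0.11, and Gclm†, the partner of Gclc, by 0.36. None passed without the replicate number, and 2 to 7 fell and 1 to 4 rose in the reduced fits, the 2 without the untreated array of pair 2.

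Genes of serine, one-carbon and nucleotide metabolism that passed fell, with 1 exception. Of 20 genes of serine, one-carbon and amino acid synthesis 9 fell and 1 rose (median -0.28), the riser being Aldh1l1, which takes one-carbon units out of the folate pool. Shmt1 went from 11.07 and 10.97 to 10.12 and 9.40, Cth, of cysteine synthesis, from 9.87 and 9.78 to 8.76 and 8.47, and the glutamine synthetase gene Glul from 12.46 and 12.21 to 11.55 and 10.95. Of 28 nucleotide synthesis genes 12 fell and 0 rose (median -0.34). Thymidine kinase Tk1 (-0.93 ± 0.12), Dctd† (-0.82 ± 0.14), Ppat (-0.82 ± 0.12), which starts purine synthesis, and Prps2 (-0.67 ± 0.10) had the largest differences. Apart from Aldh1l1 none passed without the replicate number, and the reduced fits gave 3 to 8 falls in the first list and 4 to 14 in the second, 4 in each without the treated array of pair 2 and 3 and 4 without the untreated array of pair 2.

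Regulatory enzymes were among the glycolysis genes that rose. Of 26 glycolysis genes 7 rose and 2 fell (median -0.00304). Beside Pfkfb4, the hexokinase gene Hk2 went from 9.74 and 8.34 to 10.64 and 9.83. The pyruvate dehydrogenase kinase gene Pdk4 (0.96 ± 0.15) and Pfkfb3 (0.92 ± 0.13) rose too. Of 21 hypoxia genes, the HIF prolyl hydroxylase gene Egln3 fell from 11.09 and 10.70 to 8.96 and 8.88, and Ddit4 (1.67 ± 0.13), an inhibitor of mTOR, and Vegfa (0.76 ± 0.10) rose. Lipid genes split. The lipid droplet gene Plin2 rose by 0.94 ± 0.09, and the fatty acid elongase and desaturase genes Elovl6 (-0.81 ± 0.10) and Scd1† (-0.59 ± 0.15) fell. Cholesterol synthesis had 2 of 20 higher and 2 lower, a share of 20% against 15.3% of all genes. Pfkfb4, Egln3, Ddit4 and Plin2 passed without the replicate number. Glycolysis genes had 4 rises and 0 falls in 3 of the 4 reduced fits and 6 and 1 without the treated array of pair 1, and cholesterol synthesis had 0 to 1 rises and 1 to 2 falls.

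Carrier genes that passed were lower more often than higher. Of 96 amino acid, glucose and monocarboxylate carriers 15 fell and 5 rose. Slc16a12† (-1.49 ± 0.26), the neutral amino acid carriers Slc6a19 (-1.15 ± 0.17) and Slc1a5 (-0.98 ± 0.13) and the aromatic amino acid carrier Slc16a10 (-1.09 ± 0.17) fell, and the creatine carrier Slc6a8 rose from 11.52 and 11.64 to 12.50 and 12.57. Of 77 zinc and other ion genes 15 fell and 5 rose. The zinc importer gene Slc39a10 went from 12.13 and 12.45 to 11.09 and 10.86, and the zinc-binding metallothionein genes Mt2 from 13.75 and 13.97 to 13.08 and 12.50 and Mt1 from 13.21 and 13.31 to 12.64 and 12.28. The transferrin receptor gene Tfrc fell by 0.75 ± 0.09. Of 142 ion channels 8 rose and 0 fell (median 0.09), a share of 5.63% against 15.3% of all genes. Among the rises were the calcium channel gene Trpv4 (1.20 ± 0.12) and the chloride channel gene Ano1 (0.89 ± 0.10). Slc6a8 and Trpv4 passed without the replicate number, and without the treated array of pair 2 the 2 carrier lists had 10 and 9 falls. Over the reduced fits the first had 1 to 5 rises and 7 to 15 falls, the second 3 to 5 and 9 to 16, and ion channels 4 to 6 and 0 to 2.

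Replication and recombination lists had the highest shares of members lower among the 70 lists. Of 27 genes that license and fire replication origins, 19 fell and 0 rose, with every measured member between -1.04 and -0.17 (median -0.52). Cdc6, which loads the replicative helicase, went from 9.92 and 9.28 to 9.05 and 8.12. Ticrr fell by 1.04 ± 0.17, Mcm10 by 0.98 ± 0.12 and the origin recognition gene Orc1 by 0.71 ± 0.09. Of the 6 helicase subunit genes Mcm2 to Mcm7, 5 fell, by 0.38 to 0.70, and all 5 carried a dagger (Mcm2†, Mcm3†, Mcm4†, Mcm5† and Mcm7†). Of 33 replication fork genes 21 fell and 1 rose (median -0.48). Tipin (-0.90 ± 0.10), Chaf1a (-0.73 ± 0.09) and the polymerase genes Pola1 (-0.74 ± 0.11) and Prim1† (-0.83 ± 0.16) fell, and the small polymerase delta subunit gene Pold4† rose by 0.47 ± 0.11. These falls were larger in pair 2, with medians of -0.40 and -0.66 for origin genes and -0.35 and -0.59 for fork genes. None passed without the replicate number. The 4 reduced fits gave 7 to 17 origin and 4 to 16 fork falls, 7 and 5 of them without the treated array of pair 2 and 8 and 4 without the untreated array of pair 2.

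E2F sites were looked for because E2F factors are known to drive replication genes. The letters TTTCCCGC, TTTGGCGC or TTTCGCGC, on either strand, were in 2.58% of all windows, in 31.6% of the 57 windows of the 2 replication lists and in 22.9% of the 35 windows of homologous recombination and Fanconi genes. They were in 7.41% of the 54 windows of mitosis genes. There another element was common, the CHR letters TTTGAA, in 68.5% against 14.8% of all windows. CHR letters were in 17.5% of replication windows and 8.57% of homologous recombination and Fanconi windows. The CCAAT box was in 72.2% of mitosis windows, 65.7% of homologous recombination and Fanconi windows and 52.6% of replication windows. It was in 50.8% of phase 2 and cytochrome P450 windows and in 37.4% of all windows. These shares describe all measured members of the lists and not those that fell. The windows of Mcm3† (chr1:20820263-20820562, minus strand), with 2 E2F matches in capitals, and Cdc6 (chr11:98907901-98908200, plus strand), with 1, are given as examples of genes that fell together.
Mcm3: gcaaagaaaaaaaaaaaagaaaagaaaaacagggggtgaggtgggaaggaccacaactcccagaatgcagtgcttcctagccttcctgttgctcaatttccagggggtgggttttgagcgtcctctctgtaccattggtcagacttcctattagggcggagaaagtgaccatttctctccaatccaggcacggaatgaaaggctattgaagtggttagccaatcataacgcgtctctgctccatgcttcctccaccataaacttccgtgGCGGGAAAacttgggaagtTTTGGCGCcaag
Cdc6: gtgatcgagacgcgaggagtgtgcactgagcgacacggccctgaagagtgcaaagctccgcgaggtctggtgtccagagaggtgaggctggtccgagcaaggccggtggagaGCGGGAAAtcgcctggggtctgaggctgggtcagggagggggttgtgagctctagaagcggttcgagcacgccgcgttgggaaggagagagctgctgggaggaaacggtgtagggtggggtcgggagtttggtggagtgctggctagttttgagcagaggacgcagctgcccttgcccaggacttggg

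Cell cycle and repair genes fell too. Of 37 G1 cyclins, inhibitors, E2F and Myc genes 15 fell and 2 rose. The cyclin gene Ccnd2 went from 12.30 and 12.04 to 10.95 and 10.02, a difference of -1.68 ± 0.18 (adjusted p = 0.000348), and Cdk6 from 12.46 and 12.61 to 11.57 and 11.59. E2f8 (-1.13 ± 0.13), Ccne2 (-1.09 ± 0.16) and E2f2 (-0.79 ± 0.11) fell. Myc†, which TGFbeta is known to repress in epithelia, fell by 0.48 ± 0.10, from 12.57 and 11.83 to 12.26 and 11.18, so the groups overlapped. Cdkn2b†, a CDK inhibitor known as a TGFbeta target, rose by 0.54 ± 0.09, the other rise being Mxd4† (0.71 ± 0.17), a Myc antagonist. Ccnd1 differed by -0.32 ± 0.10 and did not pass (adjusted p = 0.0755), and Cdkn1a was not analysed here. Cdk6 passed without the replicate number, and 5 to 14 members fell and 1 to 2 rose in the reduced fits, 5 falls with either array of pair 2 left out.

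Of 37 homologous recombination and Fanconi genes, 27 fell and 0 rose (median -0.64). Brca2 went from 8.97 and 9.69 to 8.12 and 8.45, Brca1 from 10.12 and 10.13 to 9.39 and 8.92, and the helicase gene Brip1 from 9.97 and 9.92 to 9.19 and 8.80. Exo1 (-0.89 ± 0.12), Fancd2 (-0.88 ± 0.14) and Rad51ap1 (-0.86 ± 0.11) fell. Mitosis and kinetochore genes had 25 of 60 lower and 0 higher (median -0.38), led by Cenpk (-1.01 ± 0.15), Cenph† (-0.91 ± 0.16), Mybl2 (-0.90 ± 0.12) and the condensin gene Smc4 (-0.73 ± 0.11). Kif14 fell by 0.76 ± 0.12, though its other probeset changed by -0.23. Of 43 histone genes, 9 fell and 0 rose, H3c15 (-0.98 ± 0.16) the most, and their median of -0.12 was -0.21 and -0.07 in the pairs. Histone genes are near-identical copies, and their probesets may not tell members apart. Brip1 was the 1 gene of these 3 lists that passed without the replicate number. The reduced fits gave 13 to 27 falls in the repair list, 6 to 26 in the mitosis list and 1 to 5 in the histone list, the values without the treated array of pair 2 being 13, 6 and 5 and those without the untreated array of pair 2 being 14, 7 and 1.

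**Figure D4:**
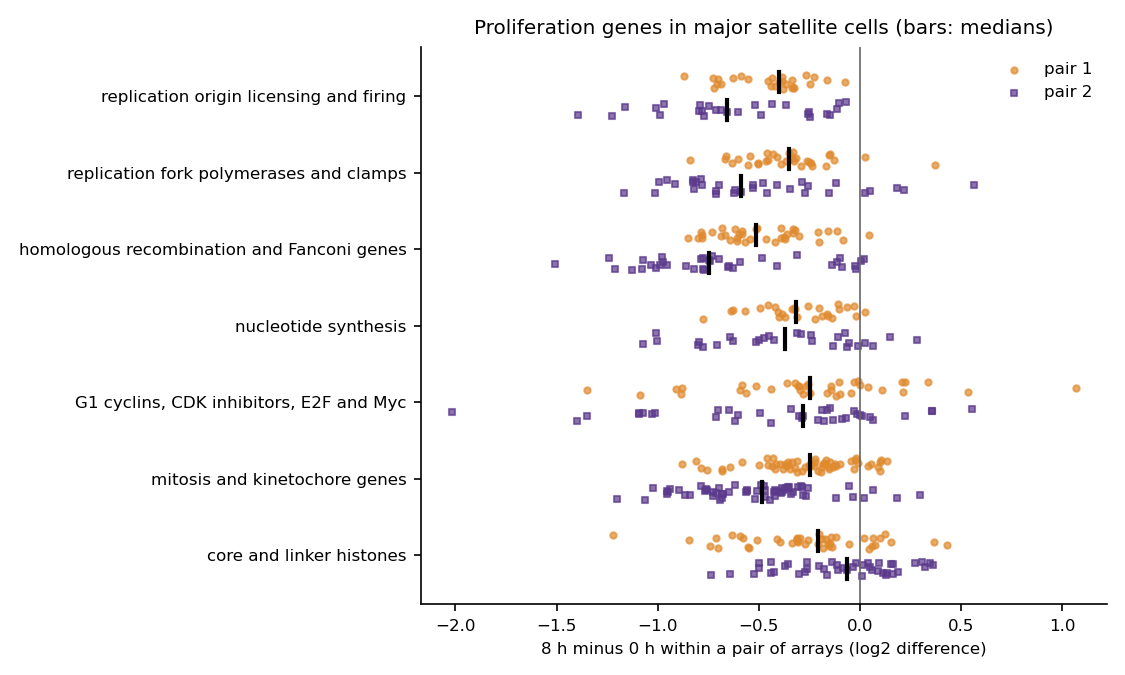
Difference between 8 h and 0 h (log2) for every measured member of 7 proliferation lists, in pair 1 (orange circles) and pair 2 (purple squares), with black bars at the medians. For origin genes all points lie below 0, with medians of -0.40 and -0.66, and the histone medians lie at -0.21 and -0.07.

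Growth arrest and stress genes were mixed. The 3 Gadd45 genes rose, Gadd45a as given above, Gadd45g from 10.39 and 9.61 to 11.53 and 11.34 and Gadd45b† by 0.70 ± 0.18. In the list of 29 p53 targets and Gadd45 genes, 6 rose and 4 fell with a median of -0.14. The 6 rises include the 3 Gadd45 genes, and a share of 34.5% passed against 15.3% of all genes. Sesn2† (-0.55 ± 0.10) and Fas† (-0.56 ± 0.13) were among the falls. Among 29 apoptosis regulators the BH3-only genes Bmf (9.97 and 10.52 to 11.40 and 11.76) and Bcl2l11 (0.76 ± 0.10) rose and Bcl2l1, a survival gene, fell from 11.04 and 10.80 to 10.35 and 10.05. Of 29 unfolded protein and integrated stress genes 6 rose and 4 fell. Nupr1 (1.31 ± 0.11), the kinase gene Eif2ak3 (0.91 ± 0.09) and Xbp1 (0.80 ± 0.08) rose. Gadd45a, Casp6 (0.73 ± 0.09) and Xbp1 passed without the replicate number. The p53 target list had 2 to 4 rises and 0 to 4 falls in the reduced fits, with 0 falls with either array of pair 2 left out. Unfolded protein and stress genes had 3 to 8 rises and 0 to 4 falls, the counts being 3 and 0 without the untreated and 3 and 1 without the treated array of pair 2.

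Because the vector carried a pericentromeric repeat, the genes of that chromatin that passed are given in full. Of 32 HP1, pericentromere and DNA methylation genes, 7 fell and 1 rose (median -0.18), a share of 25% against 15.3% of all genes. The share was 13.7% for the histone demethylases, methyltransferases and deacetylases, whose counts are given last. Hells, a remodeller needed for methylation of satellite repeats, went from 10.75 and 11.64 to 9.75 and 10.48. Uhrf1†, which guides the maintenance methylase to new DNA, went from 11.48 and 10.90 to 10.84 and 9.39, and Dnmt1†, that methylase, from 12.04 and 11.78 to 11.60 and 10.99. Pax9 (-0.72 ± 0.10), Setdb2† (-0.64 ± 0.11), Smchd1† (-0.51 ± 0.10) and Uhrf2† (-0.34) fell, and Dnmt3a† rose by 0.43 ± 0.09. Hells, Uhrf1† and Dnmt1† are also known to be expressed with DNA replication, whose genes fell as given above, and the part of the cell cycle in these falls was not tested. None passed without the replicate number, and 2 to 9 fell and 0 to 1 rose in the reduced fits, with 2 falls without the treated and 3 without the untreated array of pair 2. Of 73 histone demethylases, methyltransferases and deacetylases 6 rose and 4 fell, with Kdm5b (0.70 ± 0.11) and Kdm6b (0.67 ± 0.11) higher and Kdm7a (-0.63 ± 0.08) lower, and in the reduced fits 2 to 4 rose and 2 to 3 fell.

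Few genes of the ribosome, mitochondrion and proteasome passed, and their medians differed in sign or size between the pairs. Ribosomal proteins had 2 of 61 lower (Rpl7a† and Rpl12†) with medians of -0.04 and 0.15 in pair 1 and pair 2, and the other 2 probesets of Rpl7a† changed by -0.00233 and 0.13. Oxidative phosphorylation genes had 2 of 81 higher with medians of -0.05 and 0.17, and the mitochondrial ribosome 6 of 77 lower with medians of -0.12 and 0.14. None of 37 proteasome genes passed in limma (5 at an unadjusted p under 0.05). Without the treated array of pair 1, when the treated array of pair 2 stood alone for the group, 16 oxidative phosphorylation, 10 mitochondrial ribosome, 8 proteasome and 7 ribosomal protein genes rose. The 2 ribosomal protein falls and the 2 oxidative phosphorylation rises were in none of the other 3 reduced fits, and the mitochondrial ribosome had 2 falls in each of them. Ribosome biogenesis genes had 9 of 46 lower, with both medians below 0 (-0.24 and -0.12), Rrp1b† (-0.55 ± 0.10) and Nop58† (-0.43 ± 0.08) the largest. These 9 falls became 0 without the untreated array of pair 1, 1 with either array of pair 2 left out and 6 without the treated array of pair 1. Among RNA-binding proteins, Rbm47, an epithelial splicing and editing factor, fell from 11.80 and 11.90 to 10.38 and 10.12, and Celf2 fell by 0.99 ± 0.13 on 1 of its 2 probesets, the other changing by -0.34.

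MicroRNA genes were grouped after their values were seen. Of 296 measured, 10 rose and 14 fell, a share of 8.11% against 15.3% of all genes, and the sources used here do not say whether these probesets read the hairpin transcript or the mature miRNA. The mature sequences of the members described are shown from RefSeq (GRCm38.p6), with the seed, bases 2 to 8, in capitals, because a shared seed groups miRNAs that pair with the same targets.
mmu-miR-181b-5p: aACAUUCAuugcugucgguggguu
mmu-miR-15a-5p: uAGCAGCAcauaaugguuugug
mmu-miR-15b-5p: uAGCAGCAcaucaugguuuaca
mmu-let-7d-5p: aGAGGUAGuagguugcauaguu
mmu-let-7f-5p: uGAGGUAGuagauuguauaguu
mmu-miR-200c-3p: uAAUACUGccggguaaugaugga
mmu-miR-155-5p: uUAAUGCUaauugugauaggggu
mmu-miR-192-5p: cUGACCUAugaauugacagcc

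Mir181b-2† had the largest rise among them, from 6.55 and 8.32 to 7.70 and 10.57, a difference of 1.70 ± 0.32 (adjusted p = 0.00653). Its mature 5p form comes also from Mir181b-1, which differed by 0.24 ± 0.19 and did not pass (adjusted p = 0.453). Mir15b† and Mir15a†, whose 5p forms share the seed AGCAGCA, fell by 1.19 ± 0.22 and 0.43 ± 0.09. Mirlet7d† and Mirlet7f-1†, which share GAGGUAG, fell by 0.39 ± 0.11 and 0.46 ± 0.11. Mir192 fell from 7.57 and 8.41 to 6.82 and 7.51. Mir155†, known as induced by TGFbeta in NMuMG cells, rose by 0.65 ± 0.17, and Mir200c†, of the family that targets Zeb factors, by 0.41 ± 0.10. Mir200c† had low levels, going from 6.14 and 6.21 to 6.44 and 6.73. In control vector cells it differed by -0.19, and Mir155† by 0.69. Untreated levels of these genes often differed by more than a log2 unit between the pairs, as for Mir181b-2†, and none of the 24 passed without the replicate number. Only 3 of the 24 (12.5%), Mir186, Mir192 and Mir568, passed in every reduced fit. The counts were 1 rise and 5 falls without the untreated array of pair 2 and 0 and 4 without the treated array of pair 2, and quantile normalization gave 5 rises and 15 falls.

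The response in control vector cells was set beside these values to ask whether any of it was particular to the major satellite line. In control vector cells 2901 genes passed (14.6%; 6.92% higher and 7.63% lower), and 2229 of the 3044 passed there too in the same direction. Of the 3044, 2988 had the same sign in control vector cells and 56 the opposite. Prg4 rose there by 5.02, Has2 by 3.08 and Itga5 by 2.11, and Akr1c19 fell by 3.33, Fgfr2 by 1.99 and Ccnd2 by 1.57. The control response was a median 0.928 times that of the major satellite cells over the called genes, and 0.976 times over those that changed at least 2-fold, the genes having been chosen in the major satellite cells. List medians in control vector cells were 0.64 for feedback inhibitors, -0.56 for origin genes, -0.58 for homologous recombination genes and -0.17 for HP1, pericentromere and DNA methylation genes.

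The difference between the responses itself was tested and no gene passed in limma. At an unadjusted p under 0.05 there were 658 genes (3.30%), and the smallest adjusted p was 0.399. The 95% interval of the difference lay within 2-fold for 2989 of the 3044 genes (98.2%) and within 1.5-fold for 2425 of them (79.7%). The 5 genes with the smallest p were Cypt2†, Adh6-ps1, Mir568, Phlda1† and Ly6f. Ly6f went from 8.67 and 8.55 to 7.48 and 7.37 in major satellite cells and from 8.13 and 7.97 to 7.56 and 7.86 in control vector cells, a difference in response of -0.84 (interval -1.22 to -0.46, adjusted p = 0.999). Leaving out the treated array of pair 1 gave 17 genes, 16 higher and 1 lower, and none passed under the other alternatives tried.

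**Figure D5:**
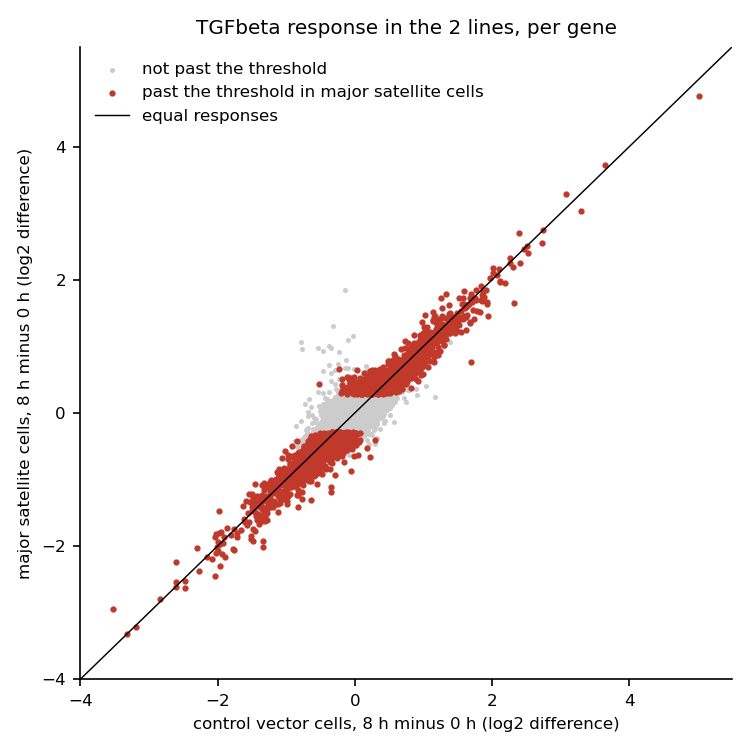
Log2 difference between 8 h and 0 h for each of 19937 genes, in control vector cells on the horizontal axis and in major satellite cells on the vertical axis, with red points for the 3044 genes that passed in major satellite cells and a line where the responses are equal. Most red points lie near the line, and 2988 of the 3044 share the sign.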

How the data were processed

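Total RNA of NMuMG cells was hybridised to 8 Affymetrix arrays. The authors deposited log2 values for 34760 probesets per array, with RMA and limma named, per the submitters' processing notes, without versions. The sources used here do not give further array processing settings. Probesets with exactly 1 gene symbol (21640) were kept, symbols were updated through RefSeq (GRCm38.p6) for 19855 genes and kept for 82, and the probeset with the highest mean stood for each of 19937 genes.

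limma 3.58.1 (R 4.3.3) fitted 1 mean per group over all 8 arrays with the replicate number as a block, leaving 3 residual degrees of freedom. Tests were two-sided and Benjamini-Hochberg adjusted over all genes at a threshold of 0.05. The code in the titles pairs the arrays: deviations from the group means correlated at 0.758 to 0.874 between arrays with the same code. The model was tested on simulated data. The members, lists and paired model were chosen with earlier results of these data known. Named genes are the 15 largest rises and 15 largest falls with the same sign in both pairs (without predicted loci, olfactory and vomeronasal receptors and small RNA genes), up to 6 called members of each list with the largest differences, a fixed set of classic TGFbeta targets, and the 5 smallest p of the difference between responses. Other genes named from the lists, the microRNA genes and the gene families were chosen after their values were seen. Alternatives were no block, leaving out each array, a filter on dim genes, quantile normalization, other probeset rules, an intensity trend, a stricter threshold, a 2-fold minimum and only the 4 major satellite arrays. The result of 1 gene list is not reported here.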

Additional observations from a re-analysis of the deposited data

Results flagged for a closer look

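Probesets outside the gene-level comparison also changed between 0 h and 8 h of TGFbeta in major satellite cells. Of those with several or no gene symbol, 91 were higher and 215 lower at an adjusted p under 0.05 when all probesets were tested in limma. They were 17 higher and 11 lower of 1321 probesets with several symbols (2.12%), and 74 higher and 204 lower of 11799 with none (2.36%), against 698 higher and 795 lower of 21640 probesets with 1 symbol (6.90%).

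In 4 named genes both pairs of major satellite arrays moved opposite to both pairs of control vector arrays. The difference in response was tested in limma and passed in none of them. It was 0.96 for Cypt2†, a cysteine-rich testis gene (adjusted p = 0.399), and 0.89 for Ndufs4†, a subunit gene of respiratory complex I. For the pseudogene Adh6-ps1 it was 0.66 and for Phlda1†, a pleckstrin homology domain gene, -0.70. Of the 3044 genes past the threshold 26 moved in opposite directions in this way, and the largest response among them was 0.67 in size in the major satellite cells.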

How the results depend on the processing

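The paired model decided how many genes passed. Without the replicate block 136 genes were higher and 82 lower, against 1374 and 1670 with it, and 76 of the 390 named genes kept their side of the threshold. No result reversed. Testing all probesets gave 789 and 1010, a threshold of 0.01 gave 716 and 847, the 4 major satellite arrays alone gave 890 and 1107 on 1 residual degree of freedom, and a 2-fold minimum gave 207 and 217. Leaving out 1 array gave 596 to 1358 genes higher and 632 to 1662 lower, both lowest without the untreated major satellite array of pair 2. The difference between the responses had 0 to 17 genes, the 17 without the treated major satellite array of pair 1. Why the counts moved was not tested. A filter on dim genes, quantile normalization, the mean of a gene's probesets and an intensity trend gave 1368 to 1446 higher and 1669 to 1752 lower. With 2 arrays per group, the smallest difference that passed was 0.28.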

Other observations

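Small nucleolar and Cajal body RNA genes, grouped after their values were seen, set the treated major satellite array of pair 2 apart. These RNAs guide the chemical modification of ribosomal and spliceosomal RNA. Over 54 measured genes the median log2 difference between 8 h and 0 h was 0.64 in that pair, -0.11 in the other major satellite pair and -0.16 and -0.12 in the control vector pairs. In that pair 15 genes rose by more than 1, and in the other 3 pairs 0 did. Snord118 had levels of 10.60 and 10.05 in untreated cells of pair 1 and pair 2 and 10.66 and 12.30 in treated cells. With all 8 arrays 1 of the 54 genes was higher and 3 lower past the threshold. Without the treated array of pair 1, 11 of the 17 genes past the threshold in the difference between responses were of this class.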
